A study of Mus musculus with 6 samples.

Results

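The genes described here encode the steroid dehydrogenases and 5-alpha reductases of mouse liver. They are 9 genes: Hsd3b2, Hsd3b3, Hsd3b5 and Hsd3b6, Hsd11b1, Hsd17b2, Hsd17b6, Srd5a1 and Srd5a2. Probes were assigned to them by the gene name of the probe or the current symbol of its accession. Together they had 11 probes of the 55681 probes on the array, besides the array's own controls. Of these, 10 were bright enough for the test, which included 24898 probes and 13495 named genes.

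Total RNA of 3 normal livers and 3 macroscopic liver tumors was measured, all from male C3H/HeN mice of 74 to 75 weeks. The mice belonged to the untreated control line of a study of gestational arsenic exposure and were kept on the standard diet CA-1, and C3H males develop liver tumors without any treatment. According to the methods, the tumors carried a Ha-ras mutation, so a tumor without one is not represented. The labels number the samples within each group but do not state that each came from a separate animal, so the p-values below cover the spread between these samples only.

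Each sample was hybridised to an array with 1 dye. The expression value used below is the signal of a probe divided by the 75th percentile of all signals on its array, and it has no unit. It compares samples for 1 probe but does not compare the levels of different genes. The array software marks each spot as well above the local background or not. On the 6 arrays, 42.7 to 46.7% of the spots were so marked, with 0 saturated. All normal livers were on 1 slide and all tumors on another. Tissue and slide therefore cannot be told apart in any difference below. The arrays correlated at 0.989 to 0.992 within the normal livers, at 0.980 to 0.990 within the tumors and at 0.914 to 0.950 between the groups.

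Liver cells remove steroid hormones from the blood and convert them into weaker, stronger or excretable forms. Hydroxysteroid dehydrogenases move hydrogen between a steroid and a nicotinamide cofactor at a given carbon and thereby turn an active hormone into an inactive one or the reverse, and 5-alpha reductases saturate the first ring of testosterone, progesterone and glucocorticoids. In rodents several of these enzymes differ between male and female liver, a difference that follows the pattern of growth hormone release, and Hsd3b5 is among the best known genes expressed in male liver.

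The Hsd3b genes lie side by side. In the RefSeq annotation of GRCm38.p6, 6 named Hsd3b genes occupy 361 kb of chromosome 3. The members in this cluster are Hsd3b5 at chr3:98618636-98645534, Hsd3b2 at chr3:98711107-98724543, Hsd3b3 at chr3:98741476-98764540 and Hsd3b6 at chr3:98805504-98814443. The other members are dispersed. Hsd11b1 is at chr1:193221640-193264045, Hsd17b2 at chr8:117700982-117759030, Hsd17b6 at chr10:127990931-128007648, Srd5a1 at chr13:69573449-69611485 and Srd5a2 at chr17:74014891-74047860.

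Since the Hsd3b genes are close copies of each other, the probes that measured them are shown first. Each probe has 60 bases, and the 30 bases below are the stretch in which probes of different Hsd3b genes resemble each other most. Capitals mark an unbroken run shared with the line above or below, and in the Hsd3b3 probe the runs shared with Hsd3b5 and with Hsd3b2 overlap.
Hsd3b5: ttgatacCTTTATGAAGCTCAAagaacaat
Hsd3b3: gCTTTATGAAGCTCAATGGAAGAAACAATa
Hsd3b2: gccCAATGGAAGAAACAATtatttgtcaat
The Hsd3b3 and Hsd3b5 probes shared a run of 15 bases, and the Hsd3b3 probe and one Hsd3b2 probe shared a run of 16 bases. In every other pair of the 5 Hsd3b probes the longest shared run was 7 bases or less. How much each probe reads from the transcript of a neighbouring gene was not tested, so the values of the 4 Hsd3b genes are uncertain to that extent.

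The stretch before a listed start of the gene is shown for Hsd3b5 and Hsd3b3, the most alike pair among the 6 Hsd3b promoters. The sequences are the 250 bases upstream of the first start listed by RefSeq, on the minus strand of GRCm38.p6, at chr3:98645535-98645784 for Hsd3b5 and chr3:98763129-98763378 for Hsd3b3. For Hsd3b3 2 starts are listed, and the window used lies inside the annotated gene, chr3:98741476-98764540. Distances, identities and motif matches given for Hsd3b3 hold for that window only. Capitals mark runs of at least 8 identical bases in their alignment.
Hsd3b5: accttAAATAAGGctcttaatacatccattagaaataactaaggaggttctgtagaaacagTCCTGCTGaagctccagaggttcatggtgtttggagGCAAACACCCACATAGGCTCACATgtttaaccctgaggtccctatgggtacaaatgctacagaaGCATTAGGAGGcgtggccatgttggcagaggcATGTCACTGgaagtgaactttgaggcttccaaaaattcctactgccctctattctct
Hsd3b3: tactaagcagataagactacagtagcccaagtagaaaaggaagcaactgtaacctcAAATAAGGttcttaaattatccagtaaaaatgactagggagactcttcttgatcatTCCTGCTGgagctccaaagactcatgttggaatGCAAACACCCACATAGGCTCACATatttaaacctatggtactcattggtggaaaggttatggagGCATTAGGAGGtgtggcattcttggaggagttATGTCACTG
These sequences were identical at 151 of 199 aligned positions, or 75.9%. The other 14 pairs among the 6 Hsd3b promoters were identical at 58.9 to 70.3% of aligned positions, and the 30 pairs that involve the other members at 53.4 to 67.8%. The longest shared run has 24 bases, starts 153 bases before the start of Hsd3b5 and 105 bases before that of Hsd3b3, and occurs in this window of no other gene in the RefSeq table.

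A search of the same window for short motifs gave few matches among the 8 members with a promoter in the table. The STAT5-type motif TTCNNNGAA, which reads the same on both strands, is in 7.02% of the 32851 promoter windows and in 0 of the 8. Both the palindromic glucocorticoid receptor motif, in 0.387% of windows, and the C/EBP motif TTGCNNCAA on either strand, in 1.74%, were found before Hsd3b6 only. They are in capitals in its upstream sequence at chr3:98814444-98814693, on the minus strand.
Hsd3b6: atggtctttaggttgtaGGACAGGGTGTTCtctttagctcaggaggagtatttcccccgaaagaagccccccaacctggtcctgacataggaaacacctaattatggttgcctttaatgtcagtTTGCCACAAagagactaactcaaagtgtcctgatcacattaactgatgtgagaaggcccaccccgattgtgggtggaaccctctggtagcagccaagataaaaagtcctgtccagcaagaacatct
The CCAAT box, searched on both strands, was found before Hsd3b3, Hsd11b1, Hsd17b6 and Srd5a1 and in 33.8% of windows. The HNF4 motif CAAAGTCCA and the TATA box TATAAA, also searched on both strands, were found before none of the 8, against 0.384% and 12.4% of windows. Hsd17b2 has no entry in the table. A match of letters is a description of the sequence only.

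The first comparison was of each gene's level between the tumors and the normal livers. The 4 Hsd3b genes and Srd5a1 had lower values in all 3 tumors than in all 3 normal livers, Srd5a2 had higher values, and Hsd11b1, Hsd17b2 and Hsd17b6 differed by less than 1.5-fold. Limma, with Benjamini-Hochberg adjustment over all 24898 probes, called 4 of the 9 genes lower at an adjusted p under 0.05, namely Hsd3b2, Hsd3b3, Hsd3b6 and Srd5a1. In the same test 22.3% of the 13495 named genes were called lower. It called 2 genes higher, Hsd17b2 and Srd5a2, against 14.6% of all genes. Hsd3b5, Hsd11b1 and Hsd17b6 did not pass. The 6 calls stand beside a background of 37% of all genes called in either direction. The median log2 fold change of the 9 genes was -1.76, against -0.14 over all named genes tested. The groups did not overlap for any of the 9 genes, 6 lower and 3 higher, nor for 55.7% of all genes, 35.6% lower and 20.1% higher.

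**Figure D1:**
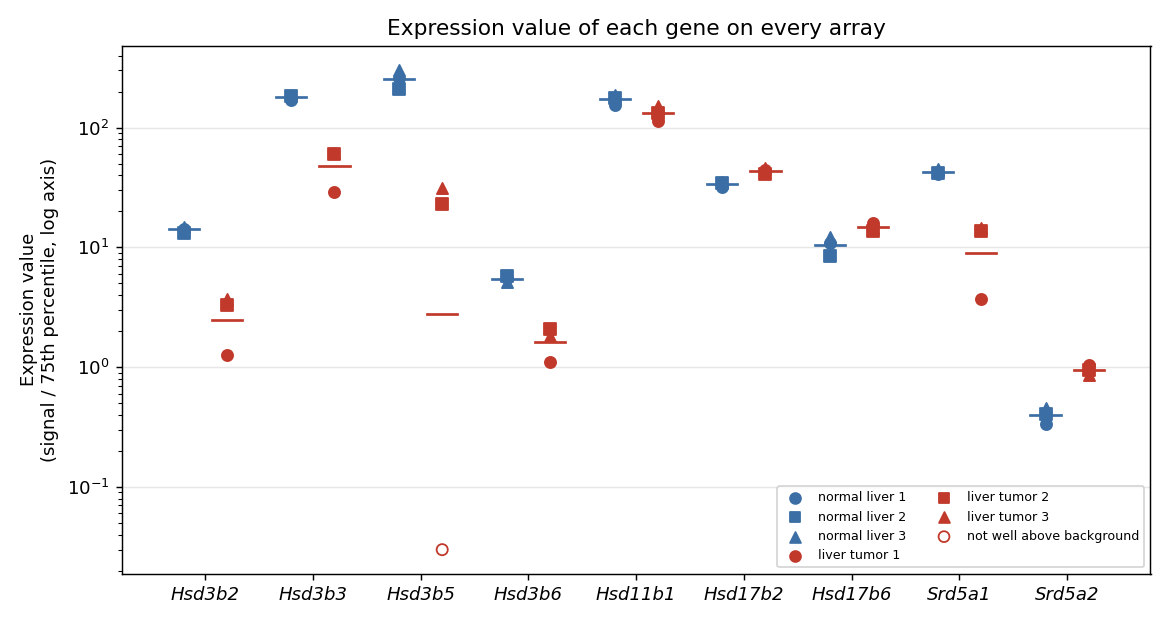
Expression value (signal divided by the 75th percentile of the array, log axis) of the 9 genes in the 3 normal livers (blue) and the 3 liver tumors (red). Each symbol is 1 array and each bar the mean of the log2 values in a group; the open circle is the Hsd3b5 spot of tumor 1, at 0.0299 and not well above background, far below tumors 2 and 3 at 23.2 and 31.2.

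Of the 9 genes, Hsd3b5 lay furthest below normal liver. It encodes an enzyme that, unlike the classical members of its family, reduces 3-keto steroids such as dihydrotestosterone. Its expression value was 259, 211 and 303 in normal livers 1, 2 and 3. In tumors 2 and 3 it was 23.2 and 31.2, or -3.46 and -3.03 on the log2 scale relative to the mean of the normal livers. In tumor 1 the spot was not well above background, with a value of 0.0299. Set at the lowest signal marked well above background on that array, a value of 0.113, Hsd3b5 was at least 2248-fold lower in tumor 1. The 3 tumors thus lay below every normal liver, and tumor 1 lay far below the others.

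With this spread among the tumors the test did not call Hsd3b5. The mean log2 fold change over the 3 tumors was -6.51 with an SE of 2.57, a 95% interval from -12.67 to -0.36 and a limma adjusted p of 0.0963, and only 2 of the 3 tumors gave a measured value. Without tumor 1 it was -3.24 with an SE of 0.21 and a limma adjusted p of 0.000721. Tumor 1 was singled out for its own Hsd3b5 value, which made the spread, so this fit is no separate support. With any other array left out, the limma adjusted p was 0.0699 to 0.190. Over the other settings and left-out arrays, the adjusted p ran up to 0.192. Means on the linear scale were 258 ± 46.2 (SD, n = 3) for normal liver and 18.2 ± 16.2 (SD, n = 3) for tumor.

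Hsd3b3, a 3-beta-hydroxysteroid dehydrogenase of liver and kidney, had values of 169, 182 and 187 in the normal livers. In tumors 1, 2 and 3 the values were 29.3, 59.98 and 61.8. Its log2 fold change was -1.91 ± 0.29 (SE, n = 3 against 3), with a limma adjusted p of 0.00530. Tumor 1 was again the lowest, at 2.11-fold less than the highest tumor, whereas the normal livers differed by at most 1.11-fold.

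Hsd3b2, which like Hsd3b3 belongs to the family of enzymes that oxidise the 3-beta-hydroxyl group, was measured by a pair of probes that do not overlap. The brighter probe read 14.3, 13.2 and 14.9 in the normal livers and 1.26, 3.32 and 3.72 in tumors 1, 2 and 3. The other probe read 13.8, 15.1 and 12.3 in the normal livers and 0.736, 3.69 and 3.36 in the tumors. Both gave the same picture, with log2 fold changes of -2.50 ± 0.40 (SE) and -2.71 ± 0.60 (SE) and limma adjusted p of 0.00604 and 0.0171.

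Hsd3b6, also a 3-beta-hydroxysteroid dehydrogenase, had values of 5.53, 5.79 and 5.12 in the normal livers and 1.11, 2.09 and 1.84 in the tumors. The log2 fold change was -1.76 ± 0.24 (SE), with a limma adjusted p of 0.00377. Among the Hsd3b members the tumors were on average lowest relative to normal liver for Hsd3b5 and nearest to it for Hsd3b6, with Hsd3b3 close. In tumor 3 alone Hsd3b3 was the nearer, at -1.54 against -1.58 on the log2 scale relative to the normal mean. The remaining genes of the cluster, Hsd3b1 of gonads and adrenal and Hsd3b4, were not well above background on all arrays of either group and were not tested.

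The 5-alpha reductases moved in opposite directions. Srd5a1, the form of liver and most other tissues, had values of 40.8, 42.02 and 45.4 in the normal livers. The values in tumors 1, 2 and 3 were 3.68, 13.6 and 14.5, or 11.6-fold, 3.14-fold and 2.95-fold below the normal mean. Its log2 fold change was -2.25 ± 0.51 (SE), with a limma adjusted p of 0.0188. The second Srd5a1 probe had no spot well above background. The call of Srd5a1 was lost when normal liver 1, 2 or 3 was left out, with limma adjusted p of 0.0535, 0.0564 and 0.0564, and it was held without tumor 1, with a log2 fold change of -1.61 and an adjusted p of 0.00108. Over all settings the adjusted p ran from 0.00108 to 0.108.

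Srd5a2, the form known from prostate and other androgen target tissues, had values of 0.337, 0.405 and 0.460 in the normal livers and 1.05, 0.943 and 0.867 in the tumors. All 3 tumors were higher than all normal livers, and tumor 1 was the highest. The log2 fold change was 1.26 ± 0.15 (SE), with a limma adjusted p of 0.00252. Over all settings the log2 fold change ran from 0.75, with another background correction, to 1.45. The adjusted p ran from 0.00102 in limma to 0.136 in the methods' paired t-test. All Srd5a2 spots were well above background, but the mean expression value of the tumors, 0.954, lay under the value of 1.0 above which the methods count a gene as expressed.

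Hsd11b1, Hsd17b2 and Hsd17b6 differed by less than the genes above. Hsd11b1 reactivates glucocorticoids, in the mouse by reducing 11-dehydrocorticosterone to corticosterone. Its values were 154, 176 and 189 in the normal livers and 114, 133 and 151 in the tumors. The highest tumor and the lowest normal liver were close, and the log2 fold change of -0.39 ± 0.15 (SE) did not pass, with a limma adjusted p of 0.0889. Over the other settings that adjusted p ran from 0.0417 to 0.643.

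Hsd17b2, which oxidises estradiol and testosterone to their weaker 17-keto forms, had values of 32.1, 34.8 and 35.3 in the normal livers and 44.1, 40.6 and 45.8 in the tumors. The log2 fold change of 0.35 ± 0.11 (SE) passed narrowly, with a limma adjusted p of 0.0472. The call was lost when any 1 of the 6 arrays was left out, with adjusted p of 0.0747 to 0.119, and over all settings it ran from 0.0119 to 0.177. Hsd17b6, an enzyme of the retinol dehydrogenase type that oxidises 3-alpha-hydroxysteroids, had values of 10.9, 8.47 and 12.1 in the normal livers and 16.1, 13.7 and 14.6 in the tumors. Its log2 fold change of 0.51 ± 0.16 (SE) missed the threshold by little, with a limma adjusted p of 0.0515 and a range of 0.0233 to 0.158 over the other settings.

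**Figure D2:**
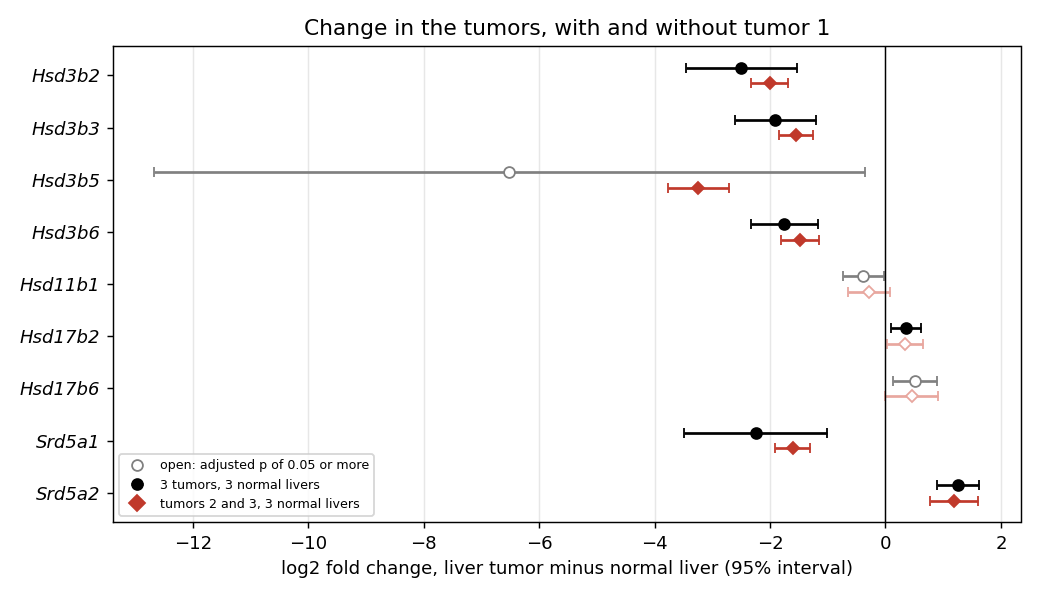
Log2 fold change (liver tumor minus normal liver, with its 95% interval from limma) of the 9 genes, over all 6 arrays (black and grey circles) and without tumor 1 (red diamonds); open symbols have an adjusted p of 0.05 or more. The interval of Hsd3b5 shrinks from -12.67 to -0.36 with tumor 1 to a narrow one around -3.24 without it, and the 4 genes called lower stay below 0 either way. Tumor 1 was singled out for its own Hsd3b5 value.

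The tumors were next set against each other, since their Hsd3b5 values differed widely. For the 4 Hsd3b genes, Srd5a1 and Hsd11b1, tumor 1 was the lowest of the 3 tumors. On the log2 scale, relative to the normal mean, it lay at -3.49 for Hsd3b2, -2.61 for Hsd3b3, -2.31 for Hsd3b6 and -3.54 for Srd5a1, whereas tumors 2 and 3 lay between -2.09 and -1.39 for these genes, close to each other. The same order held widely on the array: of the 3015 genes called lower, tumor 1 was the lowest tumor for 69.0%, and of the 988 called lower by 2-fold or more, for 82.0%. Over all tested genes the share was 37.8%.

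Without tumor 1, limma called 5 of the 9 genes lower, Hsd3b5 with the same 4 genes, and 16.9% of all genes lower. As tumor 1 was singled out for its own Hsd3b5 value, the call of Hsd3b5 in this fit is no separate support. The log2 fold changes were then -2.01 for Hsd3b2, -1.56 for Hsd3b3, -1.48 for Hsd3b6 and -1.61 for Srd5a1, with adjusted p of 0.000695, 0.00109, 0.00160 and 0.00108. Called higher was 1 gene, Srd5a2, at 1.18 with an adjusted p of 0.00609, against 11.5% of all genes.

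Whether the change of Hsd3b5 differed from that of the other members was tested within each array, as the difference between its log2 value and that of the other gene. The smallest two-sided p that 3 against 3 arrays allow is 0.1, so no pair could pass. All 8 differences were negative and each had an exact permutation p of 0.1, adjusted over the 8 pairs to 0.1. Because the Hsd3b5 spot of tumor 1 was not well above background, these differences are bounds only, taken with that spot at the lowest signal well above background. So taken, the change of Hsd3b5 minus that of Hsd3b2, the nearest member, was -3.37 log2 units or lower, and minus that of Srd5a2, the farthest, -7.13 or lower. In tumors 2 and 3 alone, where every spot was measured, the difference from Hsd3b2 averaged -1.24, that from Hsd3b3 -1.69 and that from Srd5a2 -4.43. In all 3 tumors Hsd3b5 lay lower relative to normal liver than every other member.

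**Figure D3:**
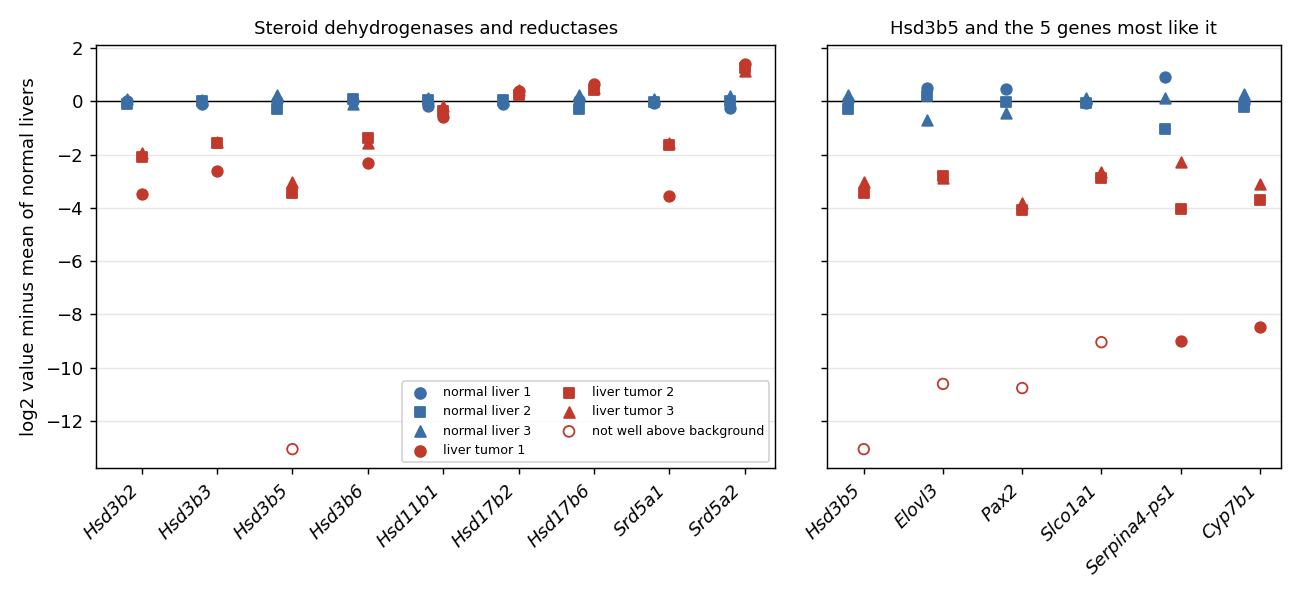
Log2 expression value of each array minus the mean of the normal livers, for the 9 genes (left) and for Hsd3b5 with the 5 genes whose pattern over the 6 arrays was most like it (right). Blue symbols are normal livers, red symbols liver tumors, and open circles spots not well above background, whose height is not a measured level; the 5 genes on the right were picked for their likeness to Hsd3b5, and for the genes on the left tumors 2 and 3 lie closer to each other than to tumor 1 wherever the tumors were at least 2-fold below normal liver.

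The genes with a pattern most like that of Hsd3b5 were found from the root mean square difference of log2 values over the 6 arrays, each gene centred on its own mean. This is a description over 6 arrays in 2 groups and carries no p. The 5 nearest were Elovl3, an elongase of very long fatty acids, Pax2, a transcription factor of the kidney, Slco1a1, an uptake carrier for organic anions and steroid conjugates, the pseudogene Serpina4-ps1 and Cyp7b1, an oxysterol and steroid 7-alpha-hydroxylase, at 1.01 to 1.74 log2 units. In tumor 1 the spots of Hsd3b5, Elovl3, Pax2 and Slco1a1 were not well above background, so these distances are not exact and their order is not given. With such signals set at the lowest signal well above background, Slco1a1 moved to rank 15 and the other 4 genes stayed the 4 nearest. Cyp7b1 read 292, 265 and 363 in the normal livers and 0.866, 23.4 and 35.2 in tumors 1, 2 and 3, with a log2 fold change of -5.09 and a limma adjusted p of 0.0292. Slco1a1 read 17.2, 17.1 and 19.2 in the normal livers and 0.0338, 2.41 and 2.81 in the tumors, the first of these not well above background. The Pax2 probe in question read 177, 129 and 96.2 in the normal livers, whereas the other 2 Pax2 probes had no spot well above background, so that its gene is uncertain.

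The other members had nearer neighbours. For Srd5a1 these were Gm826 at 0.091 log2 units and Akr1c6, a liver 17-beta-hydroxysteroid dehydrogenase of the aldo-keto reductase family, at 0.101. Akr1c6 read 851, 971 and 933 in the normal livers and 91.8, 321 and 341 in the tumors. Slc8a3 was nearest to Hsd3b3, Slc22a28 and Ttc39c to Hsd3b2, and Cxcl12 and Kif17 to Hsd3b6. Ly6e and Mdk were nearest to Srd5a2, Chchd1 and Armc1 to Hsd11b1, Zwint and Atxn10 to Hsd17b2, and Tha1 and Dync1li1 to Hsd17b6.

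The remaining enzymes of steroid metabolism were taken from lists of genes. The counts of each list below stand beside 22.3% of all named genes called lower and 14.6% called higher. Of 10 tested members among the other hydroxysteroid dehydrogenases, 5 were called lower and 2 higher, with a median log2 fold change of -0.47. Lower were Hsd17b11 (-1.52), which acts on androstane steroids at lipid droplets, Hsd3b7 (-1.15), an enzyme of bile acid synthesis, Hsd17b4 (-1.12), the bifunctional enzyme of peroxisomal beta-oxidation, Hsdl2 (-1.09) and Hsd17b10 (-0.85). Hsd17b7 (0.89), which also serves cholesterol synthesis, and Srd5a3 (0.45), which reduces polyprenol for protein glycosylation, were higher. Leaving out any 1 array still gave 5 lower calls, but of the 2 higher calls 0 were left without normal liver 1, tumor 2 or tumor 3, and 1 without normal liver 3 or tumor 1.

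Of the 5-beta and aldo-keto steroid reductases, 6 of 11 tested genes were called lower and 2 higher, with a median of -1.02. Akr1d1, the 5-beta reductase, read 1.63, 2.46 and 1.66 in the normal livers and 0.212, 0.635 and 0.663 in the tumors, with a log2 fold change of -2.07 and a limma adjusted p of 0.0166. Akr1c18, the 20-alpha-hydroxysteroid dehydrogenase that inactivates progesterone, went the other way. No normal liver had a spot well above background, and it read 104, 112 and 94.1 in the tumors, which is at least 794-fold higher, with a limma adjusted p of 5.64e-06. Dhrs9, a dehydrogenase of retinol and 3-alpha-hydroxysteroids, rose by a log2 fold change of 2.85. Without normal liver 2 the lower calls in this list went from 6 to 1.

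The steroid hydroxylases of liver divided, with 5 of 12 tested genes called higher and 4 lower. Cyp39a1, an oxysterol 7-alpha-hydroxylase, read 2.33, 4.42 and 2.60 in the normal livers and 41.7, 27.8 and 28.8 in the tumors; its log2 fold change of 3.43 was opposite to that of Cyp7b1. Cyp2b13 had no spot well above background in the normal livers and was higher in the tumors by at least 106-fold, and Cyp2b9 rose by 3.56. Of the conjugating enzymes, which attach sulfate or glucuronate, 8 of 13 tested genes were called lower and 2 higher, with a median of -1.30. Sult2a8 (-3.74) and Ugt2b1 (-3.33) fell the furthest, and the hydroxysteroid sulfotransferases Sult2a2 and Sult2b1 rose. Sult2a2 was well above background in only 1 of the 3 normal livers and read 15.4, 18.4 and 1.32 in tumors 1, 2 and 3. Sult2b1 was measured in 2 of the 3 normal livers and lay between 1.22 and 2.001 in the tumors. With the dim spots at the lowest signal well above background, the log2 fold changes were at least 5.49 for Sult2a2 and 3.32 for Sult2b1, with limma adjusted p of 0.00716 and 0.000320.

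Among steroid receptors and carriers, Serpina6, the corticosteroid-binding globulin of plasma, rose by 0.89, and the glucocorticoid receptor Nr3c1 at -0.22 and the estrogen receptor Esr1 at -0.10 did not pass. The call of Serpina6 was lost without normal liver 1, 2 or 3 and without tumor 1 or 2. Of 8 genes that supply cofactors and electrons, G6pdx, which makes NADPH in the cytosol, rose by 3.67, while Fdx1 (-1.14) and Cyb5a (-1.11) fell. H6pd, which supplies NADPH to Hsd11b1 inside the endoplasmic reticulum, had a log2 fold change of 0.26 and did not pass.

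Genes induced by glucocorticoids did not move together: of 14 tested genes 4 were called lower and 3 higher, with a median of 0.03. Over all named genes the shares were 22.3% lower and 14.6% higher. G6pc (-2.32), the last enzyme of glucose production, and Tat (-1.43), which degrades tyrosine, were among the lower, and Lcn2 (5.29) and Igfbp1 (3.94) among the higher. Of 8 steroidogenic gland enzymes and factors only 3 were tested and 1, Nr5a1, was called lower, at -0.57, a call that stood without normal liver 1 but with no other array left out. The spots of Star, Cyp11a1, Cyp11b1 and Cyp11b2, which begin and finish corticosteroid synthesis in the adrenal, were not well above background on any array.

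The growth hormone to Stat5 list had 4 of 13 tested genes called lower and 0 higher (1 higher at an unadjusted p under 0.05 in limma), with a median of -0.58. Of all named genes, 22.3% were called lower and 14.6% higher. The growth hormone receptor Ghr read 109, 135 and 116 in the normal livers and 14.9, 30.4 and 33.3 in the tumors (log2 fold change -2.27, limma adjusted p of 0.00368). Without normal liver 1 the list had 1 gene called higher. The repressor Bcl6 (-2.99), the secreted factor Igf1 (-1.65) and Stat5b (-0.78) fell as well. Of 12 tested male-biased liver genes, 5 were called lower and 0 higher (11 and 0 at an unadjusted p under 0.05 in limma), and in all 12 tumor 1 was the lowest tumor. Without tumor 1, 10 of these 12 were called lower, without tumor 3, 9, and without normal liver 2 or 3, 3. Sult5a1 (-5.05 with the spot of tumor 1, which was not well above background, at the lowest signal that was), Nudt7 (-2.51) and Cyp2d9 (-2.20) were among the 5, with Cyp7b1. Of 9 tested female-biased genes, 5 were called higher and 0 lower (5 and 1 at an unadjusted p under 0.05 in limma), with Abcb1a (2.86) and Cyp2a4 (2.60) besides the Cyp2b genes, and 1 was called lower without tumor 2 or 3.

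**Figure D4:**
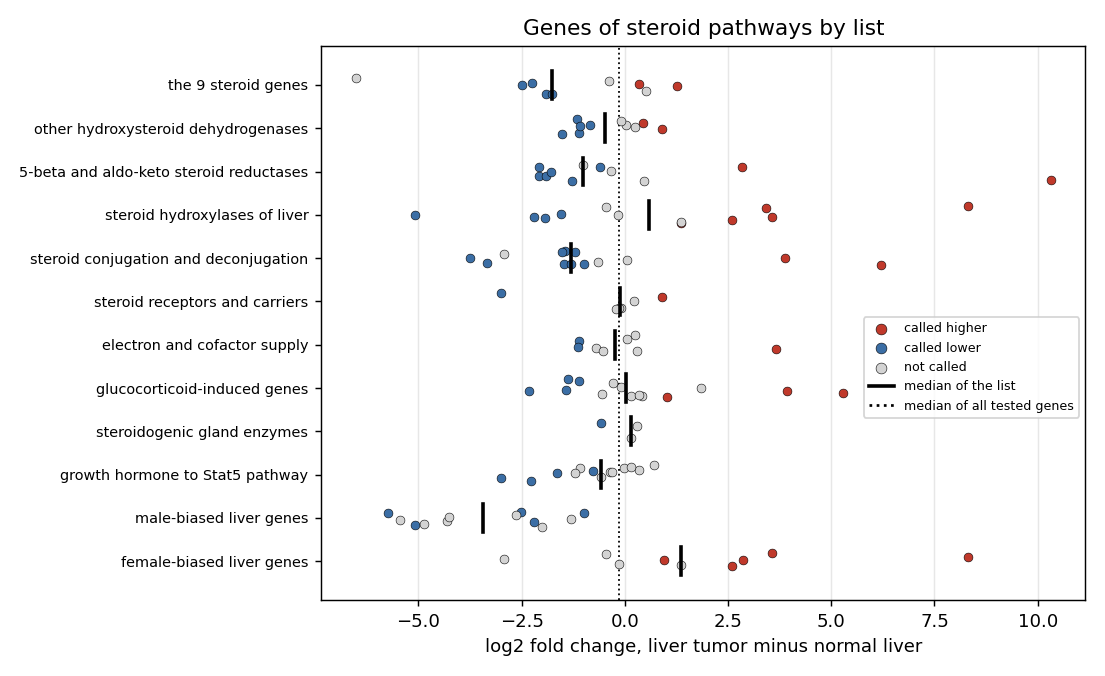
Log2 fold change (liver tumor minus normal liver) of the 9 steroid genes and of the tested genes in 11 lists; each point is a gene, red called higher, blue called lower and grey not called, and the bar is the median of the list. The 9 genes have a median of -1.76 and the male-biased list lies furthest to the left, beside the dotted median of all tested genes at -0.14.

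Markers of cell types were read beside these changes, as counts of calls and as summed expression values, in which the brightest probe of a list weighs most. Of 10 hepatocyte markers, 1 was called, Apoa1, which rose by 0.90, and their summed expression value was 10168 to 11147 in the normal livers and 10271 to 10837 in the tumors. In tumor 1 this sum was 10811. Alb had a log2 fold change of -0.06 and Hnf4a of 0.16, neither called. Of 6 macrophage markers 3 were called lower, with a median log2 fold change of -0.97, and their sum was 62.4 to 105 in the normal livers and 34.2 to 55.4 in the tumors. Of 6 stellate cell and fibroblast markers 3 were called lower, Dcn and Lrat among them, and 2 higher, Col1a1 (1.58) and Reln (0.72), with a median of -0.24. Their sum, 80.9 to 99.9 in the normal livers and 22.9 to 43.0 in the tumors, was mostly Dcn, and without Dcn it was 3.48 to 5.10 and 5.09 to 5.80. Of 6 endothelial markers 2 were called lower, with a median of -0.01 and sums of 103 to 117 and 79.1 to 88.4. Of 3 tested lymphocyte markers 1, Cd4, was called higher, while the Cd8a spots were not well above background on any array, and the list's sum was 65.3 to 69.2 in the normal livers and 140 to 244 in the tumors. Without Cd4 it was 6.53 to 8.29 and 6.60 to 8.49. Of 4 tested cholangiocyte and 4 tested neutrophil markers limma called 0, against 0 and 1 at an unadjusted p under 0.05, and 1 cholangiocyte marker was called lower without tumor 1 or 3. Leaving out tumor 1 raised the lower calls among macrophage markers to 6 and leaving out tumor 2 reduced them to 1. Endothelial calls fell to 1 without any array but normal liver 1, stellate cell and fibroblast calls to 1 higher without normal liver 1 or 3 or tumor 2 or 3, and lymphocyte calls went to 2 without normal liver 1. The part of these other cell types in the results was not tested, and in RNA of whole tissue fewer cells of a type and less RNA per cell cannot be told apart.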

How the data were processed

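RNA was labelled with Cy3 and hybridised to SurePrint G3 Mouse GE arrays (60-base probes). The deposited intensity is the processed signal of Agilent Feature Extraction, already background-subtracted (version 10.7.3.1 per the file headers, 12.0.3.1 per the submitters' processing notes). The deposited table of ratios holds, per spot, this signal divided by the array's 75th percentile, and equalled it for 100% of spots. Control spots were left out, spots of 1 probe were averaged, and log2 values were tested with limma 3.58.1 (lmFit, eBayes) in R 4.3.3. A probe was tested if all 3 arrays of either group showed it well above background. P-values were adjusted by Benjamini-Hochberg over all tested probes (threshold 0.05). A gene was represented by its tested probe with the highest mean log2 value. Names came from probe accessions through RefSeq (27235 probes), else from current symbols (3581) or synonyms (565), while 24300 probes kept the design's name and were not counted as genes.

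The members and the gene lists were chosen with earlier results of these data known. Named are all members with every probe, up to 4 called genes of each list by size of change plus others of the lists chosen after their values were seen, and the genes nearest to each member; a few of these are not reported here. The fit was tested on simulated data with 200 changed probes, of which it called 52.2% at 2-fold, 85.1% at 4-fold and 90.9% at 8-fold. The simulation held 24886 probes and gave both groups the same spread. In the data limma called 8238 probes and the spread of Hsd3b5 was unequal. The simulated shares therefore do not tell how often such changes are called in these data. The number of arrays limits the precision. Motifs and alignments used Biopython 1.88 and Python 3.11.15. Alternatives were another background correction (normexp, offset 50), other scalings, other filters, the methods' t-test and each array left out.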

Additional observations from a re-analysis of the deposited data

How the results depend on the processing

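No member gene changed direction under any alternative run. Limma called 8238 probes over all 6 arrays, 37.8% of them higher. Scaling by the spike-in controls called 5282, 63.6% of them higher, and moved the median log2 fold change of all probes by 0.20, to 0.07, while the members called were 2 higher and 5 lower. Among the higher, Hsd17b6 (limma adjusted p of 0.0360) took the place of Hsd17b2 (0.0915), and Hsd3b5 joined the lower. Without a filter on dim probes 4674 probes and 1 member higher were called. With a change of 2-fold and a mean expression value above 1.0 in a group also required, limma called 2138 probes and 0 members higher. An unpaired form of the methods' t-test, at an unadjusted p under 0.05 and without the 2-fold and 1.0 criteria, called 3 members higher. Leaving out 1 array at a time gave 4954 to 7172 probes, 1 to 2 members higher, 3 to 5 lower and 43 to 55 pathway genes, against 2, 4 and 56. The 56 were among 103 tested pathway genes, beside 37% of all named genes called over the 6 arrays. The fewest probes were called without normal liver 2.

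The t-test on expression values called 5261 probes unpaired after Benjamini-Hochberg adjustment, Hsd3b5 among them (adjusted p = 0.0204). The methods name neither the unpaired form nor this adjustment for gene expression. Paired by replicate number and so adjusted, the t-test called 0 probes, 0 members higher, 0 members lower and 0 pathway genes, against 7418, 3, 6 and 51 at an unadjusted p under 0.05. The methods name a paired t-test for gene expression between groups but do not say which samples were paired. The labels do not say whether the replicate numbers pair the samples. Deviations of same-numbered arrays correlated at 0.069, 0.132 and 0.051, which did not settle it, and the samples were treated as unpaired. With the replicate block limma called 7020 probes, 1 member higher and 4 lower, and 55 pathway genes. Hsd3b5 was also called with normexp (log2 fold change -5.11, adjusted p = 0.0220) and spike-in scaling (-6.32, 0.0373). With dim signals at the lowest signal well above background, an alternative chosen after seeing the data, it was -5.87 (adjusted p = 0.0620). The cause of these differences was not tested. The 72 alternative values of the differences between Hsd3b5 and another member all kept their sign. These differences were negative in each tumor alone, so leaving out a tumor could not change a sign. Scaling an array by a common factor cannot change them either.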
